A study of Mus musculus with 12 samples.

Results

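Glycolysis, gluconeogenesis and fructose use share most of their intermediates, and their genes were followed here across intestinal epithelium labelled as tumor or as tumor adjacent. The list held 33 genes, and 30 of them had a probe set mapped to that gene alone, out of 19938 genes measured. Each gene was read by its probe set of highest mean over the 12 arrays. The 22 measured glycolysis genes ran from glucose uptake to the fate of pyruvate, 6 belonged to gluconeogenesis or fructose entry (Khk, Fbp1, Fbp2, G6pc, Pck1 and Pck2), and 2 were phosphoglucomutases (Pgm1 and Pgm2). Gpi1, Gapdh and Eno1 had no such probe set and were not analysed here.

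The mice were males of the C57BL6/J strain, all on an APCmin/+ background, in which 1 inactivated copy of Apc leads to intestinal adenomas, and intestines were taken at 25 weeks of age. FSPCre-PPARB -/- animals, called KO, carried Cre under the promoter of fibroblast-specific protein, which is used to delete a gene in fibroblasts, together with the floxed allele of the nuclear receptor PPAR-beta/delta (Ppard). PPARB flox/flox littermates, called floxed, served as their controls. Epithelium was cut by laser from stained sections, and each sample was hybridised to 1 array. There were 3 KO tumor, 2 KO adjacent, 3 floxed tumor and 2 floxed adjacent arrays. For 2 further adjacent arrays the title and the genotype entry contradicted each other. Conflict array 1 was KO by title and floxed by genotype entry, and conflict array 2 the reverse, so neither entered a genotype comparison. The labels did not say which arrays came from the same animal, so p-values measure only the spread between these arrays, which may be technical.

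In glycolysis, glucose is taken up, trapped by phosphorylation, split into triose phosphates and converted to pyruvate, which is reduced to lactate or enters mitochondria. Gluconeogenesis runs the same path backwards and bypasses the irreversible steps with its own enzymes, among them fructose bisphosphatase and phosphoenolpyruvate carboxykinase. Fructose enters through ketohexokinase (Khk) below the main regulated step, and the absorptive cells of the small intestine are a known site of fructose use.

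Several properties of the arrays bear on every comparison below. Floxed tumor arrays 1 and 2 and both floxed adjacent arrays had a weak signal. The SD over probe sets was 1.49 to 1.57 log2 units on the KO arrays and 1.04 to 1.09 on these 4, and their correlation with the other arrays had a median under 0.7. Floxed tumor array 3 was the 1 floxed array with undisputed labels and full signal. Conflict array 1 had a correlation of 0.9 with it and of 0.822 to 0.852 with the KO arrays. For conflict array 2 these values were 0.818 and 0.956 to 0.973, where pairs of KO arrays spanned 0.947 to 0.973. Among arrays of full signal, each conflict array thus lay nearer to those of its genotype entry than to those of its title. Which of the 2 labels is right was not tested. The tissue markers did not follow the labels. The mean log2 level of 14 absorptive enterocyte markers was 7.69 to 8.48 on KO tumor arrays and 6.07 to 6.98 on KO adjacent arrays, and that of 14 markers of Wnt-driven adenoma and crypt was 4.68 to 4.75 on KO tumor arrays and 5.59 to 5.87 on KO adjacent arrays. All 14 enterocyte markers were higher and all 14 Wnt markers lower on KO tumor than on KO adjacent arrays. "Tumor" and "adjacent" therefore name only the labels of the arrays. Ppard itself was read at 6.06, 6.07 and 6.50 on KO tumor arrays, against 4.95, 4.47 and 5.79 on floxed tumor arrays. Ppard was thus not lower on KO arrays, where the deletion is aimed at another cell type. Whether its probe set covers the deleted part was not tested.

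The members differed in how far they varied between arrays. On the 8 arrays of full signal, the widest ranges were those of Pgk1 (2.53 log2 units), Fbp1 (2.36), Pfkp (2.18) and Khk (2.05), and the narrowest was that of Ldhb, a subunit of lactate dehydrogenase (0.19). Ldhb lay under the median gene on all 8 arrays, and its other probe set ran from 3.32 to 4.39 on them. Floxed tumor array 3 held the highest of the 8 values for 13 members and the lowest for 4. The probe sets of Hk1 and of Ldhb went different ways, with correlations of -0.41 and -0.72 between the chosen and the other probe set over the 12 arrays, so these genes' values hold for the chosen probe set only.

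**Figure D1:**
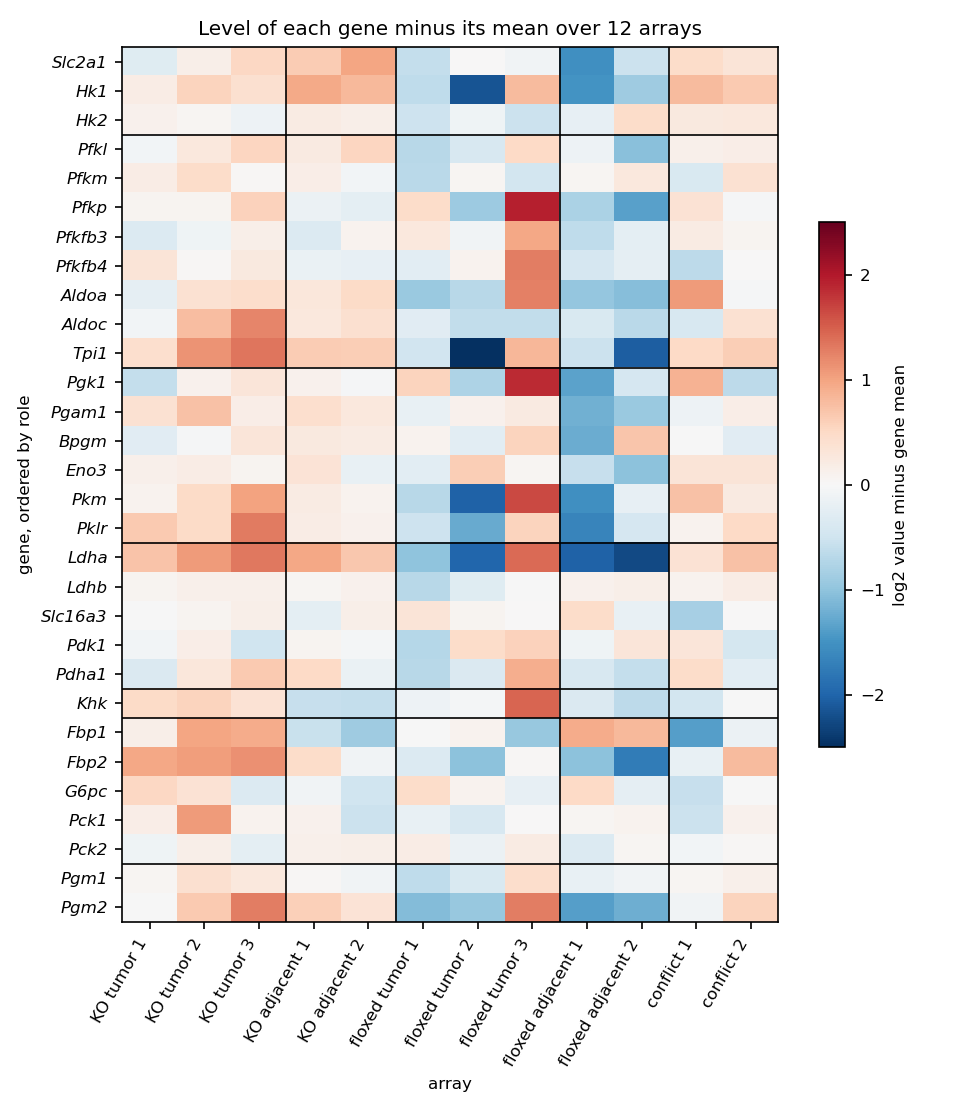
Level of each of the 30 measured genes on each of the 12 arrays, as log2 value minus the gene's mean over the 12 arrays. Genes run from glucose uptake at the top to phosphoglucomutases at the bottom, with lines between roles and between groups of arrays. The 4 weak-signal floxed arrays are mostly blue in the glycolysis rows, and floxed tumor array 3 is red for Pfkp, Pgk1 and Pkm.

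Khk and Fbp1 were higher on KO tumor than on KO adjacent arrays. Khk, which phosphorylates fructose on its entry, was read at 6.10, 6.19 and 5.98 on KO tumor arrays, against 5.06 and 5.03 on KO adjacent arrays. Fbp1, the fructose bisphosphatase best known from liver and kidney, was read at 4.75, 5.59 and 5.53 on KO tumor arrays, against 4.05 and 3.71 on KO adjacent arrays. For both genes every KO tumor array lay above every KO adjacent array. Khk was 1.05 ± 0.13 log2 units higher (SE, 2.06-fold), with an adjusted p of 0.0148 from limma over all genes on the 5 KO arrays, and Fbp1 was 1.41 ± 0.26 higher (2.66-fold, adjusted p = 0.0391). Among all genes 1.85% were called in this comparison and 0.557% were called higher, against 2 of the 30 members, both higher.

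Fbp2, the bisphosphatase isoform best known from muscle, stood at 6.91, 7.0 and 7.09 on KO tumor arrays and at 6.41 and 5.87 on KO adjacent arrays. These values did not overlap either, and the difference of 0.86 ± 0.18 missed the threshold (adjusted p = 0.0552). The carboxykinase Pck1 had a difference of 0.66 (95% interval -0.05 to 1.38) and G6pc, the phosphatase that releases free glucose, 0.47 (-0.12 to 1.06). The mitochondrial carboxykinase Pck2 differed by -0.20 (-0.55 to 0.14). Arrays of these 3 genes overlapped between the labels. The median difference over the 6 gluconeogenesis and fructose members was 0.76 log2 units, beside 0.04 over all genes.

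The calls of Khk and Fbp1 rest on few arrays. Without KO tumor array 2 the adjusted p was 0.0718 for Khk and 0.143 for Fbp1, without KO adjacent array 1 it was 0.0933 and 0.161, and without KO adjacent array 2 it was 0.206 and 0.383. On the conflict arrays 1 and 2, Khk was read at 5.17 and 5.62 and Fbp1 at 3.23 and 4.46. With these arrays read by their titles neither gene passed (adjusted p = 0.0567 and 0.0964), and likewise by their genotype entries (adjusted p = 0.31 for both). In the fit that shared its spread with the floxed arrays neither gene passed either, although the differences are the same values. There 0 of 30 members were called, beside 0.0201% of all genes, and the adjusted p of Fbp1 was 0.857.

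**Figure D2:**
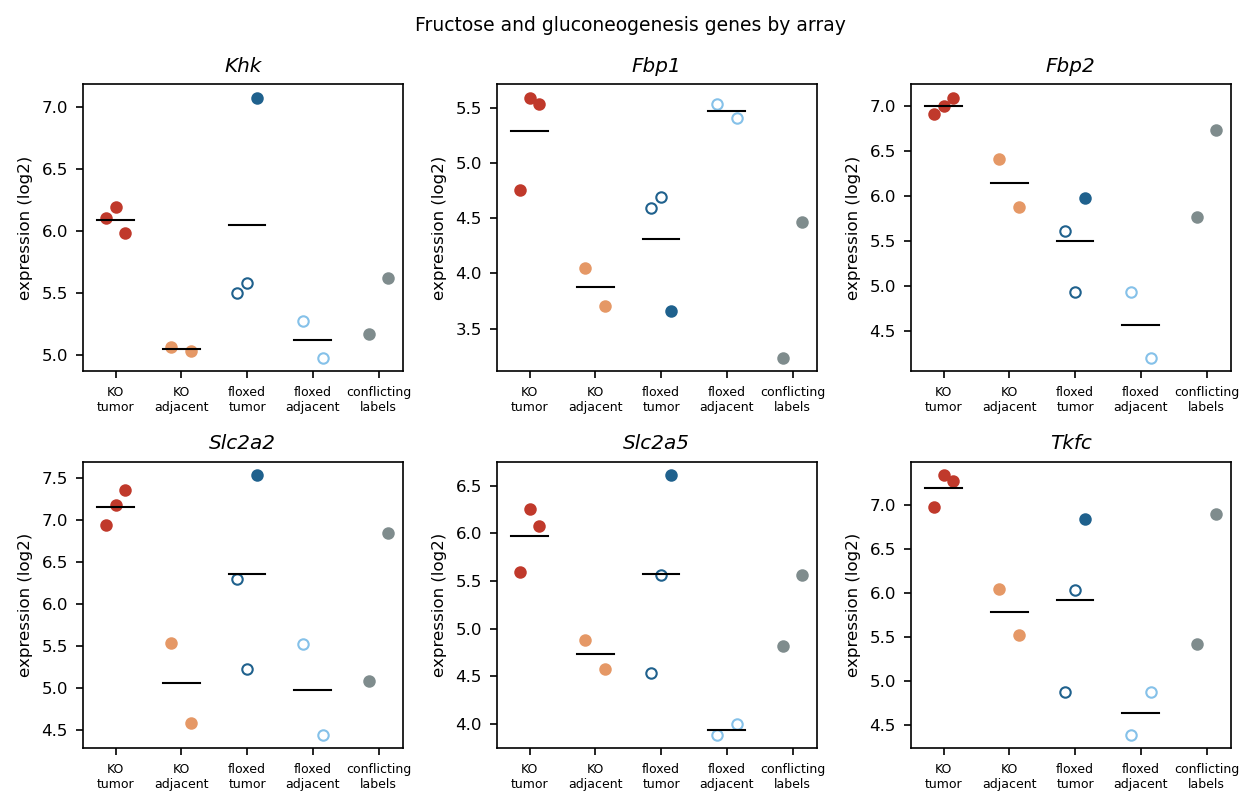
Log2 expression of Khk, Fbp1 and Fbp2 and of 3 further fructose and hexose genes on every array, in KO tumor, KO adjacent, floxed tumor, floxed adjacent and conflicting-label groups. Each point is 1 array, open points are weak-signal arrays and lines are group means. In all 6 panels the 3 KO tumor points lie above the 2 KO adjacent points.

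Of 51 further pathway genes measured, 6 were called higher and 1 lower on KO tumor than on KO adjacent arrays. Among all genes 1.85% were called and 0.557% were called higher. The 6 called higher held 3 of the 5 hexose carriers and 2 of the 4 sugar kinases. Slc2a5, the fructose carrier of the apical membrane, was read at 5.59, 6.25 and 6.08 on KO tumor arrays, against 4.89 and 4.58 on KO adjacent arrays (difference 1.24 ± 0.21, adjusted p = 0.0319). Slc2a2, the basolateral carrier of glucose and fructose, stood at 6.93, 7.18 and 7.36 on KO tumor arrays, against 5.54 and 4.59 on KO adjacent arrays (2.09 ± 0.27, adjusted p = 0.0143). Slc5a1, the sodium-coupled glucose carrier, rose by 2.37 ± 0.35 (adjusted p = 0.0227). Tkfc, the kinase of the glyceraldehyde that fructose yields, rose by 1.41 ± 0.19 (adjusted p = 0.0182), the hexokinase relative Hkdc1 by 0.99 ± 0.18 (adjusted p = 0.0384), and the coactivator Ppargc1a by 1.30 ± 0.20 (adjusted p = 0.0237). Myc, a transcription factor that is also among the Wnt markers, fell by 1.72 ± 0.22 (adjusted p = 0.0148). None of these calls held in every alternative. Of 14 alternatives, the call was lost in 3 for Slc2a2, in 7 for Hkdc1 and in 4 or 5 for each of the others.

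These shifts stood beside those of the enterocyte markers. Of the 14 enterocyte markers 4 were called higher (Apoa1, Apoa4, Cubn and Mttp) and of the 14 Wnt markers 8 were called lower (Cd44, Lgr5, Myc, Nkd1, Notum, Prom1, Sox9 and Wif1). The mean of 5 markers of proximal small intestine was 5.29, 5.59 and 7.99 on the KO tumor arrays and 5.37 and 6.14 on the KO adjacent arrays. That mean overlapped between the labels, but 1 of the 5, Adh6a, was itself called higher on KO tumor arrays (1.53 ± 0.28, adjusted p = 0.0403). The part of cell makeup and of gut position in the changes of Khk and Fbp1 was not tested, and a bulk array cannot tell more cells of a type from more RNA per cell.

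The windows before the start sites of the members called in any comparison as reported are shown, so that the sequence before each of these genes can be read beside its values. They are the 250 bases upstream of 1 RefSeq start site per gene in GRCm38.p6, 5′ to 3′ on the gene's strand: Khk at chr5:30921309-30921558 (plus strand), Fbp1 at chr13:62888283-62888532 (minus), Fbp2 at chr13:62858401-62858650 (minus), Slc2a1 at chr4:119108495-119108744 (plus) and Pgam1 at chr19:41911621-41911870 (plus). Fbp1 and Fbp2 lie close together on the same strand of the same chromosome. For Fbp2, Slc2a1 and Pgam1 that site is the outer end of the annotated gene, while for Khk it lies 123 and for Fbp1 16 bases inside it, so part of those windows falls within the gene. Capitals mark matches on either strand. The motif ACGTG and its variant form GCGTG are cores of hypoxia response elements, and CACGTG is an E-box, which holds the first of these letters on both strands. The motif CAAAG with its usual partner piece GTCCA belongs to HNF4A sites, and the element TGACCT is a piece of nuclear receptor sites of the PPAR type.
Khk: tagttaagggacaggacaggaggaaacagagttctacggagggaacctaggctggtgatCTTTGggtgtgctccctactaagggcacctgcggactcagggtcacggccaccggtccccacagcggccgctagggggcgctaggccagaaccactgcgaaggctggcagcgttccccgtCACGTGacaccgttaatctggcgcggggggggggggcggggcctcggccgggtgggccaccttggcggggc
Fbp1: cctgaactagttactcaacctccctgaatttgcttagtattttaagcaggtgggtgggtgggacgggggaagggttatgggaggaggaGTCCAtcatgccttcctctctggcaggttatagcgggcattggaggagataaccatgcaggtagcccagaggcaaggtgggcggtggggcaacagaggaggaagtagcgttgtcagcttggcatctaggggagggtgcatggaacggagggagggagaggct
Fbp2: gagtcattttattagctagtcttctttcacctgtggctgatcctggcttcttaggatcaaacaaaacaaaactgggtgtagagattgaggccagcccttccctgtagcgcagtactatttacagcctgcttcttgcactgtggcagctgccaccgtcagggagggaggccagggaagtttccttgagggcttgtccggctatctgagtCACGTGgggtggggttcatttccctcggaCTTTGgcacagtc
Slc2a1: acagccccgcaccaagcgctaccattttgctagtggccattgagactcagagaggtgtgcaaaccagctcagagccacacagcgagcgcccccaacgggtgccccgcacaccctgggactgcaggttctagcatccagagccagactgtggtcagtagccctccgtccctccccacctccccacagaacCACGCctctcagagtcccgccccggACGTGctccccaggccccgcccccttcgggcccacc
Pgam1: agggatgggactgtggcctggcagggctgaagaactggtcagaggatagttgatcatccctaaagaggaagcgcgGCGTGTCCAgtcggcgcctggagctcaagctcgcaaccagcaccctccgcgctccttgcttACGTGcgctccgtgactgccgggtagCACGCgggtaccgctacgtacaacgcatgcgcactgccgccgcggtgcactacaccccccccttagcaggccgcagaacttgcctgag
CACGTG began 71 bases before the end of the Khk window, which is inside the annotated gene, and 42 bases before the end of the Fbp2 window, and the others shown lacked it. The windows of Slc2a1 and Pgam1 each held ACGTG and also the variant GCGTG. Among all 33 members listed, 12 windows held ACGTG (36.4%), beside 16.6% of 27025 promoter windows of the same length. The motif GCGTG was in 13 (39.4%, beside 28.2%) and CACGTG in 4 (12.1%, beside 6.05%). CAAAG was in 19 member windows (57.6%, beside 48.8% of all), GTCCA in 16 (48.5%, beside 34.2%) and TGACCT in 5 (15.2%, beside 13.8%). Windows with CAAAG and also GTCCA or TGACCT, at any distance, numbered 14 (42.4%, beside 21.6%). A match of letters is a description of the window and not a binding site.

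Among the glycolysis genes no difference between KO tumor and KO adjacent arrays passed the test. None of the 22 was called (limma; 5 had an unadjusted p under 0.05), and their median difference was 0.04 log2 units, the same as over all genes. The 3 genes of uptake and trapping each lay lower on every KO tumor array than on any KO adjacent array. Slc2a1, the basal glucose carrier, was read at 5.44, 5.90 and 6.26 on KO tumor arrays, against 6.39 and 6.72 on KO adjacent arrays (difference -0.69, adjusted p = 0.229). The hexokinases Hk1 (-0.51, adjusted p = 0.171) and Hk2 (-0.17, adjusted p = 0.65) did not pass the test either. For Hk1 the lower values hold for the chosen probe set only. Its other probe set overlapped, with 4.639, 4.784 and 4.545 on KO tumor arrays, against 4.455 and 4.889 on KO adjacent arrays. Pklr, the pyruvate kinase best known from liver and red cells, ran the other way at 6.50, 6.33 and 7.16 on KO tumor arrays, against 6.03 and 5.96 on KO adjacent arrays (0.67, adjusted p = 0.244). Pfkp, a phosphofructokinase, and Pfkfb4, which sets the level of that enzyme's activator, also lay higher without overlap and did not pass (0.43, adjusted p = 0.349, and 0.39, adjusted p = 0.267). In all, 10 of the 30 members did not overlap between the labels, 7 higher and 3 lower, beside 17.9% higher and 14.1% lower among all genes.

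**Figure D3:**
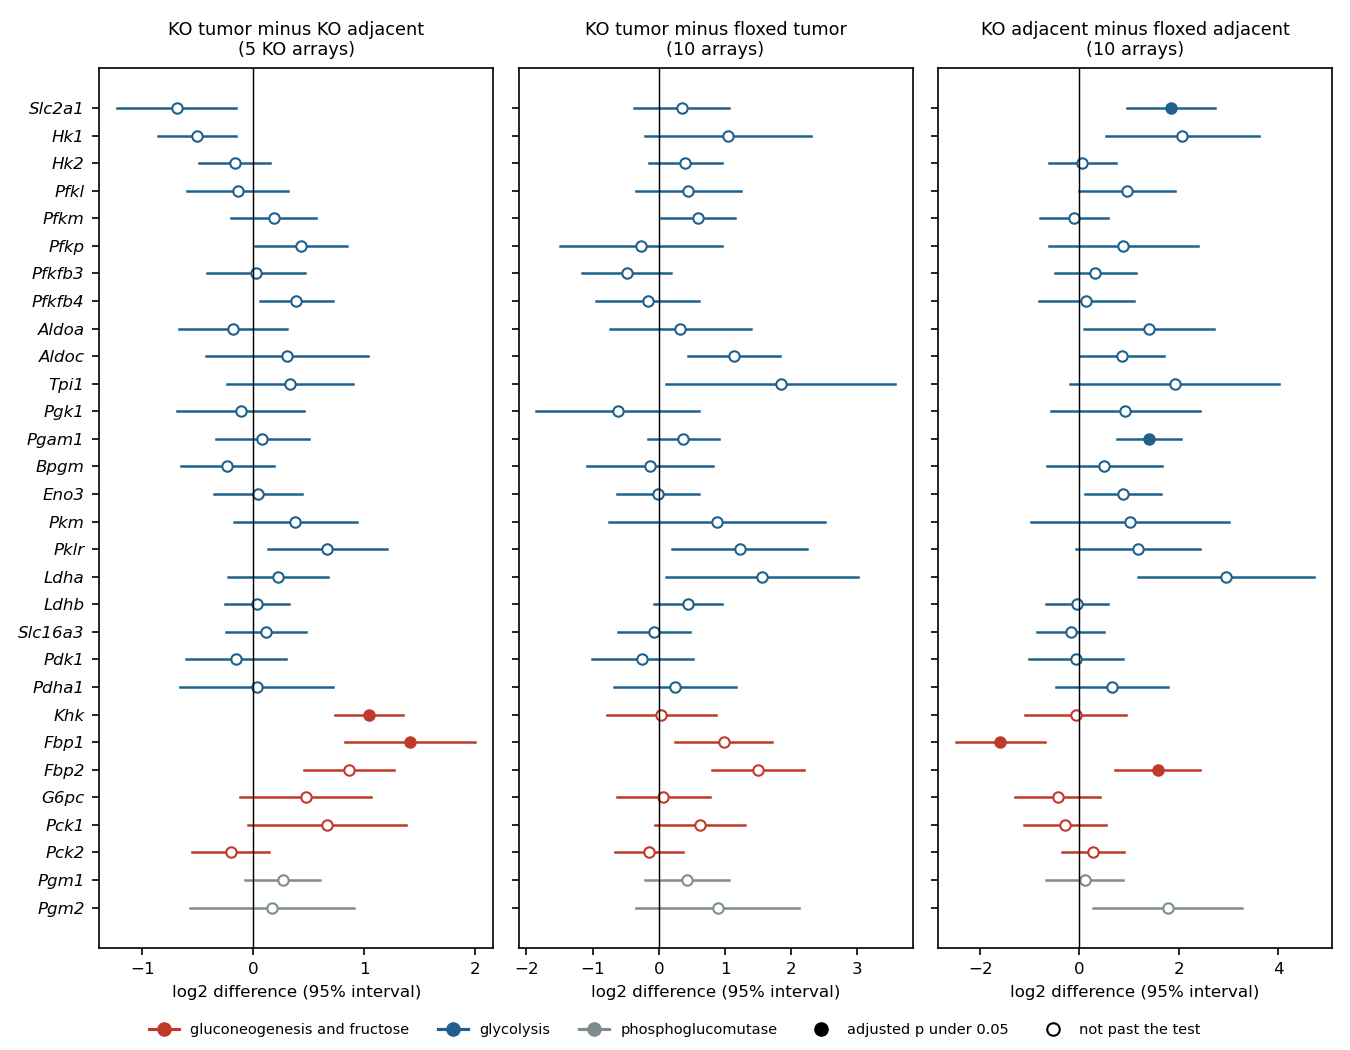
Log2 difference with its 95% interval for the 30 members in 3 comparisons: KO tumor minus KO adjacent (5 KO arrays), KO tumor minus floxed tumor and KO adjacent minus floxed adjacent (both from the fit of 10 arrays). Filled points passed an adjusted p of 0.05: Khk and Fbp1 in the left panel, none in the middle and Slc2a1, Pgam1, Fbp1 and Fbp2 in the right one.

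Between KO and floxed tumor arrays, the comparison the study's title names, 0 of the 30 members were called by limma, beside 1.08% of all genes; 7 had an unadjusted p under 0.05. The arrays of 5 members did not overlap, all 5 higher on KO arrays, beside 13.2% of all genes higher and 13.9% lower without overlap. Fbp2 came closest to a call. It stood at 6.91, 7.0 and 7.09 on KO tumor arrays, against 5.61, 4.93 and 5.98 on floxed tumor arrays, and all 3 KO arrays lay above all 3 floxed arrays. The difference of 1.50 ± 0.32 had an adjusted p of 0.055, and 0.0251 once the replicate numbers entered as blocks. That block fit called 3.92% of all genes, and the labels do not say that arrays of the same number form pairs. Aldoc, an aldolase isoform best known from brain, was read at 4.79, 5.63 and 6.08 on KO tumor arrays, against 4.59, 4.25 and 4.25 on floxed tumor arrays (1.14 ± 0.32, adjusted p = 0.0896). Fbp1 stood at 4.75, 5.59 and 5.53 on KO tumor arrays, against 4.59, 4.69 and 3.66 on floxed tumor arrays (0.98 ± 0.33, adjusted p = 0.131). Khk stood at 6.10, 6.19 and 5.98 on KO tumor arrays, against 5.49, 5.57 and 7.08 on floxed tumor arrays (0.04, 95% interval -0.79 to 0.87), so KO arrays lay within the floxed range.

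For glycolysis the answer in tumor arrays depended on which floxed array was used. Pgk1, which forms ATP in the lower steps of the pathway, was read at 5.80, 6.50 and 6.70 on KO tumor arrays, against 6.96, 5.62 and 8.27 on floxed tumor arrays. Pkm, the pyruvate kinase of proliferating tissues, stood at 6.67, 7.06 and 7.58 on KO tumor arrays, against 5.88, 4.56 and 8.23 on floxed tumor arrays. Ldha, the lactate dehydrogenase subunit that favours lactate formation, stood at 7.08, 7.43 and 7.69 on KO tumor arrays, against 5.37, 4.39 and 7.79 on floxed tumor arrays. In all 3 genes floxed tumor array 3 exceeded every KO tumor array and floxed tumor array 2 lay under every one. Tpi1, which interconverts the triose phosphates, stood at 7.18, 7.89 and 8.10 on KO tumor arrays, against 6.29, 3.76 and 7.61 on floxed tumor arrays. The median difference of the 22 glycolysis genes was 0.36 log2 units (all genes -0.01, or 0.18 without the dimmest 30%). It was 0.08 after quantile normalization and -0.03 after scaling arrays to one median and SD, so its direction was not settled.

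With the weak-signal arrays left out, floxed tumor array 3 alone stood for the floxed group and was assumed to vary like the other arrays. There 9 of the 30 members were called, beside 19.4% of all genes, 9.47% higher and 9.92% lower. Lower on KO tumor arrays were Pgk1 (-1.94), Pfkp (-1.71), Pkm (-1.13), Pfkfb4 (-1.08), Pfkfb3 (-1.07), Aldoa (-1.05) and Khk (-0.99), and higher were Fbp1 (1.64) and Fbp2 (1.03). The median of the glycolysis genes was then -0.32. Without floxed tumor array 3, in turn, the floxed group held only weak-signal arrays, and 10 members were called, beside 29.1% of all genes, all higher on KO tumor arrays: Aldoa, Aldoc, Fbp2, Hk1, Ldha, Pgm1, Pgm2, Pklr, Pkm and Tpi1. Aldoa and Pkm were thus called in opposite directions by the 2 choices, and Fbp2 was called higher by both. Floxed tumor array 3 also had the highest mean of the proximal markers, 8.11, against 5.85 and 5.70 on floxed tumor arrays 1 and 2. The part of gut position and of signal in these differences was not tested.

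**Figure D4:**
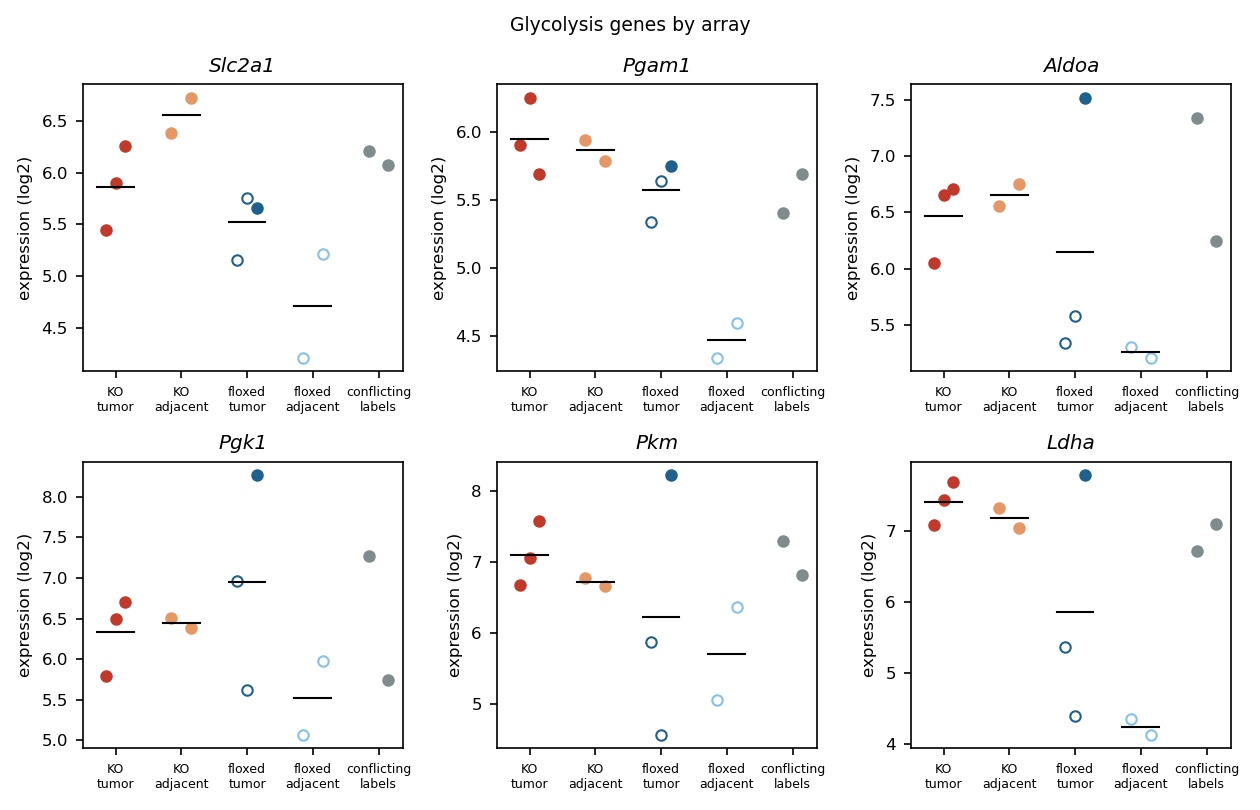
Log2 expression of Slc2a1, Pgam1, Aldoa, Pgk1, Pkm and Ldha on every array, with open points for weak-signal arrays and lines for group means. Floxed tumor array 3, the filled point of its group, lies above all KO tumor points for Aldoa, Pgk1, Pkm and Ldha, and the floxed adjacent points lie below the KO adjacent points in all 6 panels.

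In adjacent epithelium, 4 of the 30 members were called between the genotypes, beside 6.06% of all genes (2.91% higher and 3.15% lower). Slc2a1 was read at 6.39 and 6.72 on KO adjacent arrays, against 4.21 and 5.21 on floxed adjacent arrays (difference 1.85 ± 0.40, adjusted p = 0.0312). Pgam1, the phosphoglycerate mutase, stood at 5.95 and 5.79 on KO adjacent arrays, against 4.34 and 4.60 on floxed adjacent arrays (1.40 ± 0.30, adjusted p = 0.0297). Fbp2 stood at 6.41 and 5.87 on KO adjacent arrays, against 4.93 and 4.20 on floxed adjacent arrays (1.57 ± 0.39, adjusted p = 0.0424). Fbp1 went the other way, with 4.05 and 3.71 on KO adjacent arrays, against 5.54 and 5.41 on floxed adjacent arrays (-1.59 ± 0.41, adjusted p = 0.0467). Both floxed adjacent arrays had a weak signal, so genotype and signal cannot be told apart among these arrays. The conflict arrays 1 and 2 are adjacent arrays of full signal, and by title or by genotype entry 1 of them is floxed. There Slc2a1 was read at 6.21 and 6.07, Pgam1 at 5.41 and 5.69, Fbp2 at 5.76 and 6.74 and Fbp1 at 3.23 and 4.46. For all of these genes both conflict arrays lay on the KO side of the floxed adjacent values. The part of signal was not tested.

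Across glycolysis, 18 of the 22 genes lay higher on the KO adjacent arrays, with a median of 0.88 log2 units beside -0.05 over all genes (0.59 after quantile normalization and 0.57 after scaling). Without the dimmest 30% of genes, the median over all genes was 0.24. Of the 30 members, 23 lay above the array's median gene on every KO array. The part of brightness in the differences of the members was not tested. Ldha had the largest difference of the members, with 7.33 and 7.04 on KO adjacent arrays, against 4.35 and 4.12 on floxed adjacent arrays (2.95 ± 0.81, adjusted p = 0.0543). Hk1 stood at 7.66 and 7.52 on KO adjacent arrays, against 5.21 and 5.82 on floxed adjacent arrays (2.07, adjusted p = 0.0877). Tpi1 stood at 7.41 and 7.38 on KO adjacent arrays, against 6.24 and 4.71 on floxed adjacent arrays (1.92, adjusted p = 0.216). For all 3 every KO array lay above both floxed arrays. On the conflict arrays 1 and 2, Ldha was read at 6.72 and 7.09, Hk1 at 7.49 and 7.36 and Tpi1 at 7.27 and 7.39. The other probe set of Hk1 went the other way, with 4.455 and 4.889 on KO adjacent arrays, against 4.965 and 4.909 on floxed adjacent arrays.

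Aldoa, the main aldolase of glycolysis, was read at 6.56 and 6.75 on KO adjacent arrays, against 5.30 and 5.20 on floxed adjacent arrays (1.40, adjusted p = 0.153). Pkm stood at 6.78 and 6.67 on KO adjacent arrays, against 5.05 and 6.37 on floxed adjacent arrays (1.02, adjusted p = 0.48), and Pklr at 6.03 and 5.96, against 4.20 and 5.44 (1.18, adjusted p = 0.2). Pgm2, of the phosphoglucomutase family, stood at 6.19 and 5.93 on KO adjacent arrays, against 4.21 and 4.37 on floxed adjacent arrays (1.77, adjusted p = 0.122). In all, 19 of the 30 members were higher without overlap and 1 lower, beside 32.1% and 35.0% of all genes. Marker lists differed in the same comparison. The 9 general epithelial markers all lay higher on the KO adjacent arrays without overlap, with a median difference of 1.72 and none called, and their mean level was 6.74 to 6.80 on KO adjacent arrays and 5.03 to 5.12 on floxed adjacent arrays. Of the 14 Wnt-driven adenoma and crypt markers, 12 lay higher without overlap and 4 were called (Cd44, Nkd1, Notum and Prom1; median difference 1.21), with a mean level of 5.59 to 5.87 on KO adjacent arrays and 4.44 to 4.60 on floxed adjacent arrays. Of the 10 fibroblast markers 8 lay higher and 2 lower without overlap, and Dcn was called higher (median 0.62). Of the 14 enterocyte markers 7 lay higher without overlap and none was called (median 0.96). The part of cell makeup in the glycolysis differences was not tested. Of the 51 further pathway genes, only the monocarboxylate carrier Slc16a7 was called in this fit, at 3.09 and 2.51 on KO adjacent arrays, against 4.17 and 3.93 on floxed adjacent arrays (-1.25, adjusted p = 0.0497). This gene was dim, at percentiles 13.8 and 6.0 of all genes on KO adjacent arrays and 34.6 and 23.6 on floxed adjacent arrays. Its call was lost in 12 of 19 alternatives.

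None of the 4 calls held in every alternative. Neither scaling alternative called any of the 4, and neither did either reading of the conflicting labels. Leaving out KO adjacent array 1 or 2, floxed adjacent array 1 or any 1 of the 3 KO tumor arrays left no member called, and without floxed adjacent array 2 Slc2a1 alone was called.

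Between floxed tumor and floxed adjacent arrays no member was called by limma (0 of 30, beside 0.00502% of all genes; 9 members had an unadjusted p under 0.05). Pgam1 was read at 5.34, 5.64 and 5.76 on floxed tumor arrays, against 4.34 and 4.60 on floxed adjacent arrays (1.11 ± 0.27, adjusted p = 0.213). Fbp1 stood at 4.59, 4.69 and 3.66 on floxed tumor arrays, against 5.54 and 5.41 on floxed adjacent arrays (-1.16 ± 0.37, adjusted p = 0.279). Khk had a difference of 0.93 ± 0.42 (adjusted p = 0.399), with 5.49, 5.57 and 7.08 on floxed tumor arrays, against 5.27 and 4.97 on floxed adjacent arrays. Over all 6 tumor and all 6 adjacent arrays 0 members were called by limma (beside 0.0% of all genes; 2 had an unadjusted p under 0.05). Khk had the largest difference there, 0.88 ± 0.25, with an unadjusted p of 0.00315 and an adjusted p of 1.0.

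The test of a difference between the tissue contrast of the KO arrays and that of the floxed arrays called no member in limma (0 of 30, beside 0.0% of all genes; 3 had an unadjusted p under 0.05). Fbp1 had the largest value, 2.57 ± 0.53 log2 units (adjusted p = 0.5), and Slc2a1 (-1.50, adjusted p = 0.712) and Pgam1 (-1.03, adjusted p = 0.716) were the others with an unadjusted p under 0.05. For Khk the difference of the contrasts was 0.12, with a 95% interval of -1.19 to 1.43.

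Set side by side within each array, the gluconeogenesis and fructose genes and the glycolysis genes gave separate orders. Each gene was centred on its mean over the 12 arrays, and the centred values were averaged over the genes of a list. The gluconeogenesis and fructose mean was 0.36, 0.70 and 0.32 on KO tumor arrays and -0.09 and -0.41 on KO adjacent arrays, while the glycolysis mean was 0.05, 0.34 and 0.46 on KO tumor arrays and 0.25 and 0.21 on KO adjacent arrays. The gluconeogenesis and fructose list separated the labels among KO arrays and the glycolysis list did not. On floxed tumor arrays the glycolysis mean was -0.37, -0.61 and 0.62, and on floxed adjacent arrays -0.75 and -0.56, with every weak-signal array below every array of full signal. The gluconeogenesis and fructose mean overlapped between the labels there, at -0.004, -0.242 and 0.091 on floxed tumor arrays and -0.037 and -0.279 on floxed adjacent arrays. On the conflict arrays 1 and 2 it was -0.533 and 0.126. These means describe the chosen genes and were not tested.

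**Figure D5:**
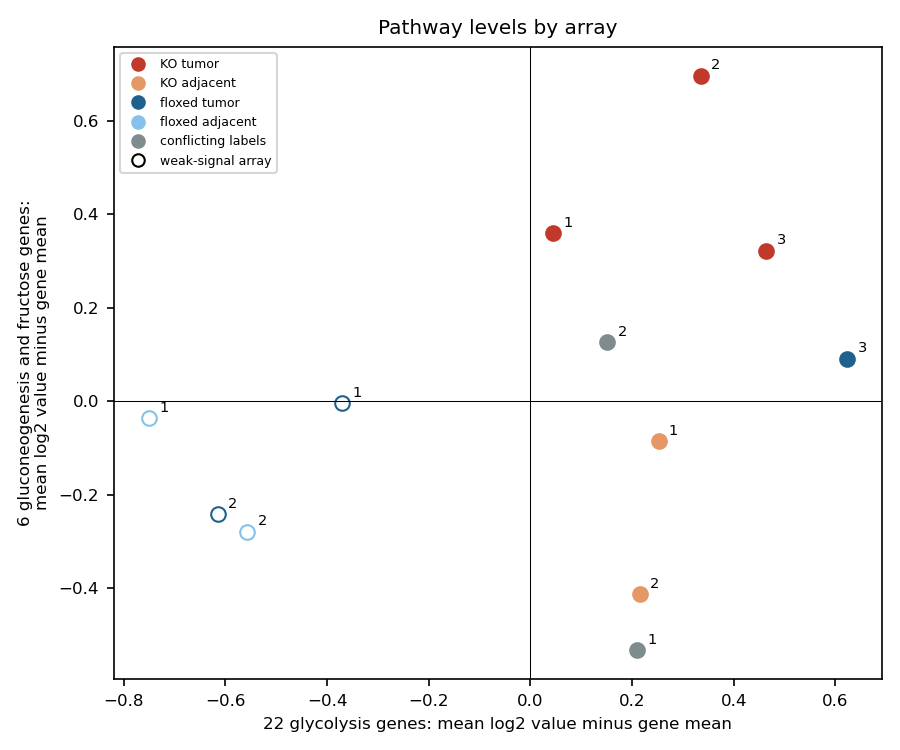
Mean centred log2 level of the 6 gluconeogenesis and fructose genes (vertical axis) against that of the 22 glycolysis genes (horizontal axis), 1 point per array with its replicate number. KO tumor points lie above KO adjacent points at similar horizontal positions, and the 4 open weak-signal points lie at the left.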

How the data were processed

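RNA was amplified with a GeneChip WT Pico kit and labelled with biotin, per the labels' protocols, for 12 arrays. The authors deposited log2 expression values per probe set, and the submitters' processing notes name Partek and RMA with no version. Of 35556 probe sets, 21789 had 1 gene symbol, 1621 several and 12146 none here. Those with 1 symbol gave 19938 genes, of which 999 had several probe sets. The 10 arrays with agreeing labels were fitted as 4 groups by limma (version 3.58.1, R 4.3.3; lmFit and eBayes, two-sided, Benjamini-Hochberg adjustment over all genes, calls at an adjusted p under 0.05). The 5 KO arrays were also fitted alone, and all 12 arrays by tissue label. These fits assume equal spread on all arrays, which differed. In data simulated with each array's own spread, the share of false calls between KO and floxed tumor arrays exceeded the threshold, so those adjusted p-values may be too small. The small number of arrays limits the precision.

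Members and lists were chosen with earlier results of these data known. Array values are printed for members called in any comparison, or not overlapping with a difference of at least 1 log2 unit, and for further pathway genes that were called; values of other members, Ppard and some without-weak-signal calls were added for description. The arrays of weak signal were likewise known from an earlier analysis. Same-numbered KO and floxed tumor arrays deviated together across genes (r = 0.105, 0.121 and 0.347), so the replicate block stands beside that comparison; floxed tumor array 2 correlated better with KO tumor array 1 (0.246). Alternatives were other scaling, a filter on the dimmest 30% of genes, all probe sets, array weights, eBayes with trend, the replicate block, both readings of the conflicting labels, the weak-signal arrays left out, and each array left out.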

Additional observations from a re-analysis of the deposited data

Results flagged for a closer look

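Fbp1 differed in opposite directions between the groups. It was higher on every KO tumor array than on any floxed tumor array (difference 0.98 log2 units) and lower on both KO adjacent arrays than on both floxed adjacent arrays (-1.59). The same 10 arrays, read by tissue, put Fbp1 higher on KO tumor than on KO adjacent arrays (1.41) and lower on floxed tumor than on floxed adjacent arrays (-1.16). Both statements rest on 1 interaction of 2.57 log2 units, whose adjusted p of 0.5 did not pass (unadjusted p = 0.000502). Both floxed adjacent arrays and 2 of the 3 floxed tumor arrays had a weak signal, and the part of signal in this difference was not tested. Fbp1 was read at 5.54 and 5.41 on those floxed adjacent arrays. On the conflict arrays 1 and 2, which are adjacent and of full signal, it was read at 3.23 and 4.46. By title conflict array 2 is floxed, and its value lay above the KO adjacent values of 4.05 and 3.71. By genotype entry conflict array 1 is floxed, and its value lay below them. Which label is right was not tested, so these arrays do not settle the reversal. Whether 1 array stood apart within a group of 2 or 3 was not tested. Over the 6 tumor and the 6 adjacent arrays, pooled over genotypes, no member had 1 array standing apart by Dixon's test (0 of 60). Differences between the pooled groups widen the range, so this test can miss a deviating array. Pfkfb4 on floxed tumor array 3 (0.624) and Pck1 on KO tumor array 2 (0.618) lay just under the critical value of 0.625.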

How the results depend on the processing

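Of 55 differences of single genes followed, 47 kept their direction under the alternatives run and 8 did not. In KO against floxed tumor arrays, Khk (0.04 log2 units as reported) was -0.18 after quantile normalization, -0.34 after scaling, -0.99 without weak-signal arrays and -0.24 to 0.56 with each array left out. Without weak-signal arrays Pkm was -1.13, Ldha -0.39 and Aldoa -1.05, where 0.88, 1.55 and 0.33 were reported, and Aldoa was -0.065 after scaling and -0.076 to 1.02 with each array left out. Leaving out each array gave -1.29 to 0.038 for Pgk1 (-0.62 as reported), -0.97 to 0.45 for Pfkp (-0.27) and -0.48 to 0.29 for Pfkfb4 (-0.17), each positive without floxed tumor array 3; Pfkfb4 was 0.092 with array weights. The difference of the tissue contrasts for Khk (0.12) was -0.058 with conflicting labels read by genotype entry and -0.16 to 0.63 with each array left out. Between KO and floxed tumor arrays, 0 members were called as reported, 1 with all probe sets, 3 with array weights, 1 with the replicate block, 9 without weak-signal arrays and 0 to 10 with each array left out. Between KO and floxed adjacent arrays, 4 were called as reported, 0 after quantile normalization, 0 after scaling, 2 without the dimmest genes, 8 with only the arrays compared, 9 with array weights, 7 with the replicate block, 0 with the conflicting labels read by title, 0 by genotype entry and 0 to 8 with each array left out (8 without floxed tumor array 3). For KO tumor against KO adjacent arrays in the 10-array fit, 0 were called as reported, 2 with only the arrays compared, 4 with array weights, 2 without weak-signal arrays and 0 with any array left out. In the KO arrays alone, 2 were called as reported, 5 with the replicate block, 0 by title, 0 by genotype entry and 0 to 3 with each array left out (3 without KO tumor array 3). Floxed tumor against floxed adjacent gave 0, and 0 to 1 with each array left out (Pfkp without floxed tumor array 2). Over all arrays 1 member, Khk, was called with array weights. The shares of all genes called in the same fits also rose. Between tumor arrays they were 14.6% with array weights and 3.92% with the replicate block. Between adjacent arrays they were 17.2% with only the arrays compared, 20.2% with array weights and 12.3% with the replicate block. Without floxed tumor array 3 that share was 24.6%. In the KO arrays alone they were 4.59% with the replicate block and 3.17% without KO tumor array 3. The cause of the changed counts was not tested, except that leaving out arrays lowers the number of samples. The numbers pair only the tumor arrays of both genotypes by the rule used; elsewhere arrays share a number only (r of -0.129 to 0.062), and the block value is given for completeness. Over all genes, the calls between KO and floxed tumor arrays split into 136 higher and 79 lower, and 6 and 2 after quantile normalization; between adjacent arrays they split into 580 and 629, and 125 and 85. Leaving out the weak-signal arrays left no array in the floxed adjacent group, so it was not run for that genotype comparison, the floxed tissue contrast or the interaction. Weak signal on 4 of the 5 floxed arrays with agreeing labels limits every genotype comparison.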
